A study of Mus musculus with 2 samples.

Results

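The Serpinb9 family was examined in RNA-seq counts of CT26 cells, a mouse colorectal cancer line, as the 7 genes with the GENCODE M21 symbols Serpinb9 and Serpinb9b to Serpinb9g. The 7 genes were found by symbol among the 24223 genes of the count tables, and all 7 were present. The DAC library came from CT26 cells given 1 μM DAC (decitabine, a cytosine analog that blocks DNA methyltransferases) in 3 daily doses, followed by 24 h in drug-free medium. The control library came from CT26 cells handled in parallel without DAC. With 1 library of 1 cell line per group, no difference has a replicate check, no test was possible, and differences between cultures cannot be told apart from the treatment.

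Serpins are protease inhibitors that offer a flexible reactive center loop as bait. The protease cuts the loop and is then trapped on the inhibitor. Mouse Serpinb9, also named SPI6, blocks granzyme B, the protease by which cytotoxic lymphocytes kill target cells. It protects lymphocytes from their own granules and can shield tumor cells. Serpinb9b is known in the mouse as an inhibitor of granzyme M. Humans have a single SERPINB9 gene, whereas the mouse carries several copies next to each other, and the proteases met by the copies Serpinb9c to Serpinb9g are not described here.

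The 7 protein-coding genes lie within 1 cluster on chromosome 13 (GRCm38). Serpinb9 (ENSMUSG00000045827) spans chr13:33003250-33017957 and Serpinb9b (ENSMUSG00000021403) chr13:33027416-33041884. Serpinb9c (ENSMUSG00000021404) spans chr13:33149275-33159742 and Serpinb9d (ENSMUSG00000054266) chr13:33192959-33203129. Serpinb9e (ENSMUSG00000062342) spans chr13:33249612-33260850, Serpinb9f (ENSMUSG00000038327) chr13:33324077-33335370 and Serpinb9g (ENSMUSG00000057726) chr13:33484790-33496004. Serpinb9c is on the minus strand and the others are on the plus strand. Gm11397, at chr13:33395761-33405285, does not carry the family symbol in GENCODE M21 but is named Serpinb9h in RefSeq, and it is given beside the 7 genes because of its sequence. The coding bases of the variable part of the loop, read from GENCODE transcripts between conserved codons on either side, are shown because the loop is what a protease meets and because they tell the copies apart. They lie toward the 3' end of each gene, for example at chr13:33495139-33495195 in Serpinb9g. Capitals mark bases that differ from Serpinb9g at the same place. Serpinb9 and Serpinb9b have loops of other lengths (51 and 60 bases against 57) and are left in lower case.
Serpinb9: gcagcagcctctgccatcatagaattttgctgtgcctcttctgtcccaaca
Serpinb9b: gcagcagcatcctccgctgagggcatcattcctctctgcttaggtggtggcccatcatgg
Serpinb9c: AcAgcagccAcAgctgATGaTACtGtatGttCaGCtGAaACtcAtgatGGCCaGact
Serpinb9d: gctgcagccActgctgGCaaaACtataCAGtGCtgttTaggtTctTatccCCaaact
Serpinb9e: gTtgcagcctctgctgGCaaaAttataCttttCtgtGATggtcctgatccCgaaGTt
Serpinb9f: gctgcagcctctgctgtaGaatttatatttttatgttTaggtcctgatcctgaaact
Gm11397: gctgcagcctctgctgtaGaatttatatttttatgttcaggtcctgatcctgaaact
Serpinb9g: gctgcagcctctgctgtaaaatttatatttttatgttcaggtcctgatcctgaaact
The loop of Gm11397 differed from that of Serpinb9g at 1 base and the loop of Serpinb9f at 2. Serpinb9e differed at 12 bases, Serpinb9d at 15 and Serpinb9c at 25 of the 57. Over the whole coding sequence, Serpinb9g was 99.1% identical to Gm11397, 98.7% to Serpinb9f, 95.3% to Serpinb9e and 94.5% to Serpinb9d. Against Serpinb9 and Serpinb9b it was 81.3% and 78.6% identical, and against Serpinb9c 74.7%.

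This likeness limits how far counts of single copies can be read. Of the 50-base stretches in the longest Serpinb9 transcript, 0.380% occur in a transcript of another gene, and the share was 5.62% in Serpinb9b and 18.9% in Serpinb9c. The Serpinb9b share came mainly from Gm36099, an antisense gene that overlaps it by 278 exonic bases, and the Serpinb9c share from the pseudogene Gm11385. Whether strand was used in counting was not stated, so reads of Serpinb9b and Gm36099 cannot be told apart over the overlap. Serpinb9d and Serpinb9e shared 30.8% and 28.4% of their stretches, Serpinb9g 54.8% and Serpinb9f 78.7%, all with each other or with Gm11397. Serpinb9f shared 63.9% of its stretches with Gm11397 and 37.8% with Serpinb9g. For stretches of 100 bases the shares were 52.3% in Serpinb9f, 38.5% in Serpinb9g, 10.1% in Serpinb9e and 7.21% in Serpinb9d, and 0% in Serpinb9. Serpinb9, Serpinb9b and Serpinb9c shared no 50-base stretch with Serpinb9d, Serpinb9e, Serpinb9f, Serpinb9g or Gm11397.

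**Figure D1:**
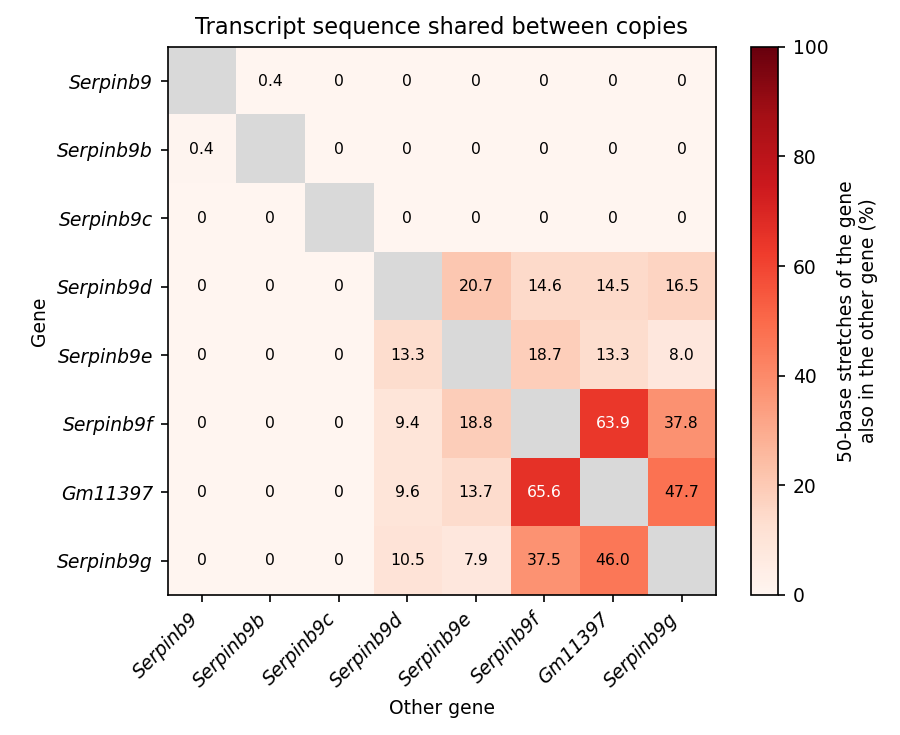
Percent of the 50-base stretches of each gene's longest transcript (rows) that also occur in a transcript of the other gene (columns), with gray cells on the diagonal. Serpinb9f, Gm11397 and Serpinb9g form the block of highest sharing, with 63.9% of Serpinb9f found in Gm11397, and Serpinb9, Serpinb9b and Serpinb9c stand apart from it.

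The total count was 35163420 for DAC and 34221886 for control cells. Levels are given as CPM, counts scaled to library size with edgeR's TMM factors, where 1 CPM stands for 37.6 counts in DAC and 32.0 in control cells. Calls were made for genes that reached 1 CPM in DAC or control cells. A call needed a DAC to control ratio of 2 or more, or of 0.5 or less, with a 95% Clopper-Pearson (exact) interval that did not cross 1. Intervals follow ratios in parentheses and cover counting error only. Of 13545 genes past the minimum, 10.8% were called higher and 5.29% lower in the DAC library. As a check of the labelled colorectal line, 7 of 8 colon epithelial markers were analysed here, with a summed level of 261 CPM in DAC and 77.3 CPM in control cells. The defining markers Cdh1 (9 DAC and 0 control counts) and Vil1 (12 and 0) were near the floor of 3 counts, and Cdx2 (22 and 4) was below the minimum. Krt8, a simple-epithelium keratin, had 4445 and 5 counts and held 118 CPM of the summed level in DAC. Krt18, its partner keratin and the most abundant of the list over both libraries, was well counted in both, with 3579 DAC and 1797 control counts, as was Krt20, with 1548 and 593. All 6 mesenchymal markers passed the minimum and 0 were called. Col1a2, a collagen chain and the most abundant of them over both libraries, had 973 CPM in DAC and 1651 CPM in control cells, and Vim had 1297 and 1128 CPM. The part of the keratin difference in the values below was not tested.

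In these libraries 5 of the 7 Serpinb9 genes were called higher in DAC-treated cells and 0 lower, against 10.8% of all genes higher. The other 2, Serpinb9b and Serpinb9c, also had more CPM in the DAC library but stayed under 2-fold. Serpinb9d, Serpinb9f and Serpinb9g were under 1 CPM in the control library and passed the minimum through the DAC library alone, so they could be called in the higher direction only. In bulk RNA, fewer cells expressing a gene and less RNA per cell cannot be told apart. The median log2 ratio of the 7 genes was 2.93, against -0.018 over all genes past the minimum, with the same reservation.

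**Figure D2:**
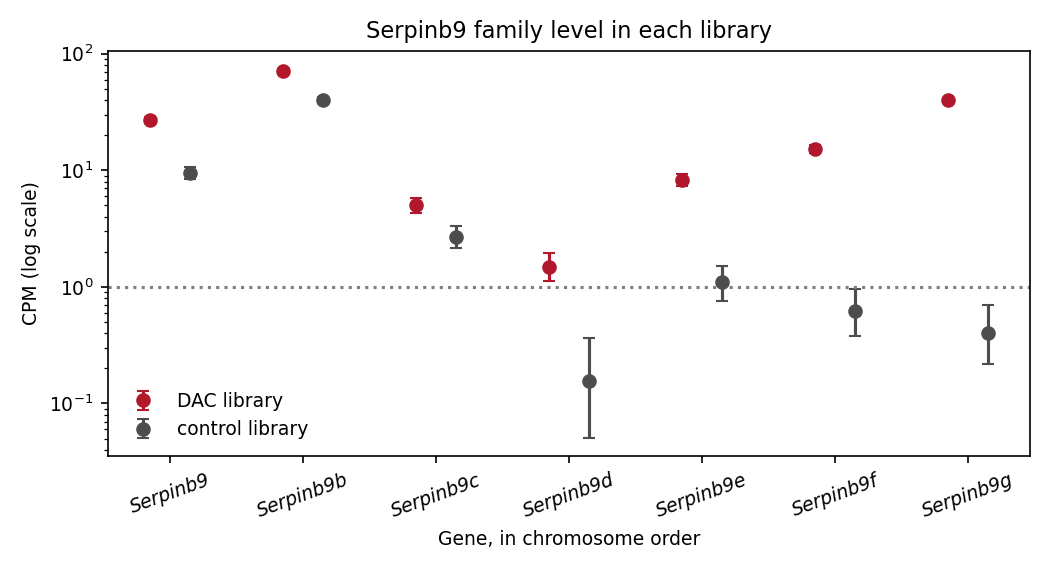
CPM of each Serpinb9 gene (y axis, log scale) in the DAC library (red) and the control library (gray), with exact 95% counting intervals and the minimum of 1 CPM as a dotted line. The DAC point lies above the control point for each of the 7 genes, with the narrowest gap for Serpinb9b (71.0 and 40.0 CPM) and the widest for Serpinb9g (39.7 and 0.406 CPM).

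Serpinb9, the granzyme B inhibitor, had 1017 counts (27.1 CPM) in the DAC library and 303 counts (9.46 CPM) in the control library. This gave a ratio of 2.86 (2.51 to 3.26), and 6.40% of all genes past the minimum had a ratio as high. The DAC level lay well above the control level on counting error, and nearly all of its transcript sequence is its own.

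Serpinb9b, the granzyme M inhibitor, was the most abundant of the 7 genes, with 2667 counts (71.0 CPM) in DAC and 1281 counts (40.0 CPM) in control cells. Its ratio was 1.77 (1.66 to 1.90), the lowest of the family, and 13.4% of genes had a ratio as high. Serpinb9c had 189 and 86 counts in the DAC and control libraries, a ratio of 1.87 (1.44 to 2.45). Both intervals lay above 1, and neither gene met the 2-fold rule, but both passed it when counts were scaled by library totals, at 2.03 for Serpinb9b and 2.14 for Serpinb9c. Library totals move every log2 ratio up by 0.19, and 7 of the 7 genes are then called higher, as are 1889 genes in all, against 1468 by TMM.

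Serpinb9g stood farthest from the control, although the control cells had only 13 counts of it. It had 1493 counts (39.7 CPM) in the DAC library, against 0.406 CPM in the control library, a ratio of 97.9 (57.1 to 184). Of the 13545 genes past the minimum, 15 had a ratio as high, Serpinb9g included. That number depends on the floor, since genes with no control counts were given 3 in the ratio, while lower counts that were seen stayed unchanged. A lower floor would raise the ratios of such genes, so some genes absent from the control library may rank below Serpinb9g for this reason only.

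The near-identical copy Serpinb9f had 571 counts in DAC and 20 in control cells, 15.2 and 0.625 CPM, and a ratio of 24.3 (15.6 to 40.1). Gm11397 had 323 counts in DAC and 6 in control cells, a ratio of 45.9 (20.8 to 126). The sum of Serpinb9f, Gm11397 and Serpinb9g had 2387 DAC and 39 control counts, a ratio of 52.2 (38.0 to 73.5). It does not depend on how shared reads were split among them if each read was counted once, which was not stated. The order of these 3 genes by ratio was not tested, and the interval of Gm11397 overlaps those of both others.

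Serpinb9e had 312 counts (8.30 CPM) in the DAC library and 35 counts (1.09 CPM) in the control library, a ratio of 7.60 (5.35 to 11.1). Serpinb9d was the least abundant member, with 56 counts (1.49 CPM) in DAC and 5 counts (0.156 CPM) in control cells, and a ratio of 9.54 (3.86 to 30.5). The interval of Serpinb9d spans that of Serpinb9e, so their ratios cannot be ordered. With a minimum of 5 CPM, Serpinb9d is no longer called.

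**Figure D3:**
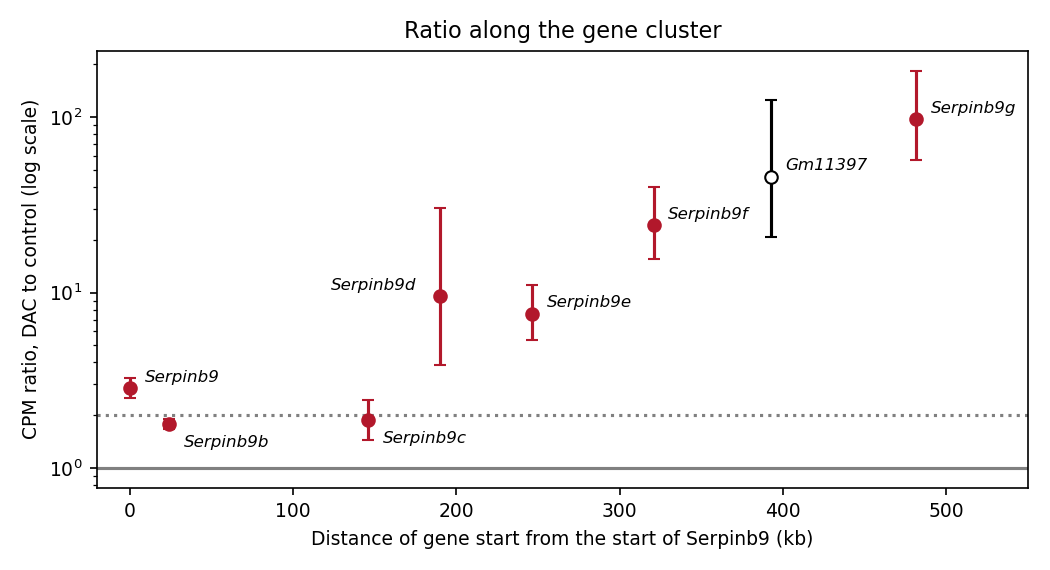
CPM ratio of DAC to control (y axis, log scale) with exact 95% counting intervals, against the distance of each gene's start from that of Serpinb9 (x axis, kb); red points are the 7 genes, the open point is Gm11397, and lines mark ratios of 1 (solid) and 2 (dotted). The 3 genes at 0 to 146 kb have ratios of 1.77 to 2.86, and the copies from Serpinb9d at 190 kb to Serpinb9g at 482 kb have ratios of 7.60 to 97.9. The start is taken as the lower coordinate, which for Serpinb9c, on the minus strand, is the far end of the gene.

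Within the family, low ratios came first along the chromosome and high ratios after them. The order does not extend beyond it, since Serpinb6b, the nearest analysed gene before Serpinb9, had a ratio of 10.5 (6.85 to 16.8). Serpinb9, Serpinb9b and Serpinb9c, whose lower coordinates lie within 146 kb, had ratios of 1.77 to 2.86. Serpinb9d, Serpinb9e, Serpinb9f, Gm11397 and Serpinb9g, whose starts follow from 190 kb to 482 kb, had ratios of 7.60 to 97.9. The lowest interval bound of the second set, 3.86 for Serpinb9d, lay above the highest bound of the first, 3.26 for Serpinb9. The split into these sets was made with the values known, and Serpinb9d has 5 control counts. With counts divided by 3 in the intervals, the bounds were 2.08 for Serpinb9d and 3.61 for Serpinb9, and the sets overlapped. The second set is also the copies that share much of their transcript sequence with each other, so position and shared sequence cannot be told apart. Summed over Serpinb9d, Serpinb9e, Serpinb9f, Serpinb9g and Gm11397, the ratio was 29.7 (23.8 to 37.7) from 2755 DAC and 79 control counts. If each read was counted once, this sum is the same however reads are split among these copies. Over the well-separated pair Serpinb9 and Serpinb9b, the sum had 3684 and 1584 counts and a ratio of 1.98 (1.87 to 2.10). These sums were chosen with the values of the genes known.

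The family as a whole had 6305 counts (168 CPM) in the DAC library and 1743 counts (54.4 CPM) in the control library, a ratio of 3.08 (2.92 to 3.25). Without Serpinb9b the ratio was 6.71 (6.09 to 7.41), and over Serpinb9, Serpinb9b, Serpinb9c and Serpinb9d, a sum chosen after seeing the data, it was 1.999 (1.89 to 2.12). The make-up of the family also differed between the libraries. Serpinb9b held 42.3% of the family counts (exact 95% interval 41.1 to 43.5) in DAC and 73.5% (71.4 to 75.6) in control cells. Serpinb9e, Serpinb9f and Serpinb9g together held 37.7% (36.5 to 38.9) in DAC and 3.90% (3.04 to 4.92) in control cells. The share of Serpinb9 was 16.1% (15.2 to 17.1) in DAC and 17.4% (15.6 to 19.2) in control cells, with overlapping intervals.

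**Figure D4:**
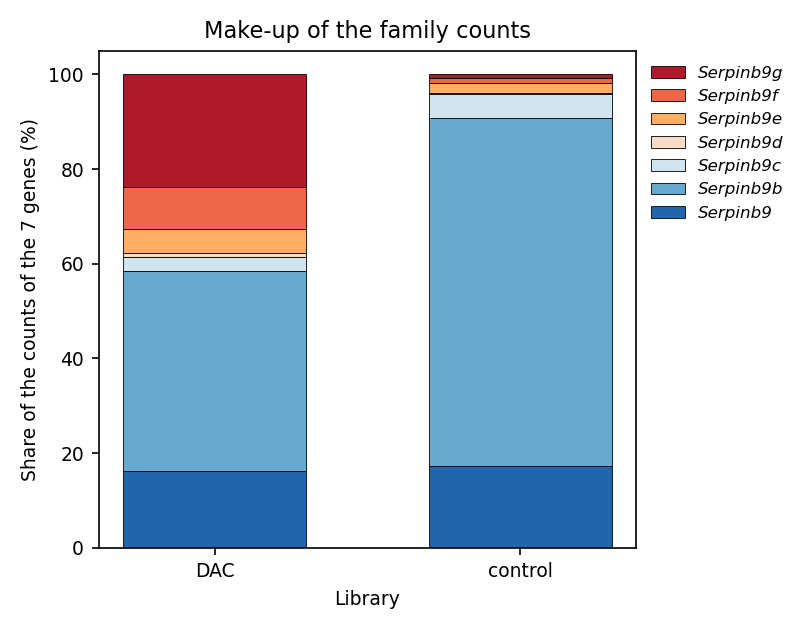
Share of the counts of the 7 genes (y axis, percent) held by each gene in the DAC library (left) and the control library (right). Serpinb9b takes 42.3% in DAC and 73.5% in control, while Serpinb9g takes 23.7% in DAC and 0.746% in control.

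Levels were compared between genes per kilobase of the longest transcript. In DAC cells the order in CPM per kilobase was Serpinb9b (21.8), Serpinb9g (20.6), Serpinb9f (7.95), Serpinb9 (7.80), Serpinb9e (4.32), Serpinb9c (2.64) and Serpinb9d (1.19). Serpinb9b and Serpinb9g did not differ beyond their counting intervals there, nor did Serpinb9f and Serpinb9. In control cells Serpinb9b (12.3), Serpinb9 (2.73) and Serpinb9c (1.41) led in CPM per kilobase with separate intervals. Below them, Serpinb9e (0.568), Serpinb9f (0.327), Serpinb9g (0.211) and Serpinb9d (0.125) overlapped each with its neighbor. By these values Serpinb9g was next to last in control cells and second in DAC cells, but neither rank is settled on counting error. Ranks of the copies with shared sequence also depend on how reads were placed.

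**Figure D5:**
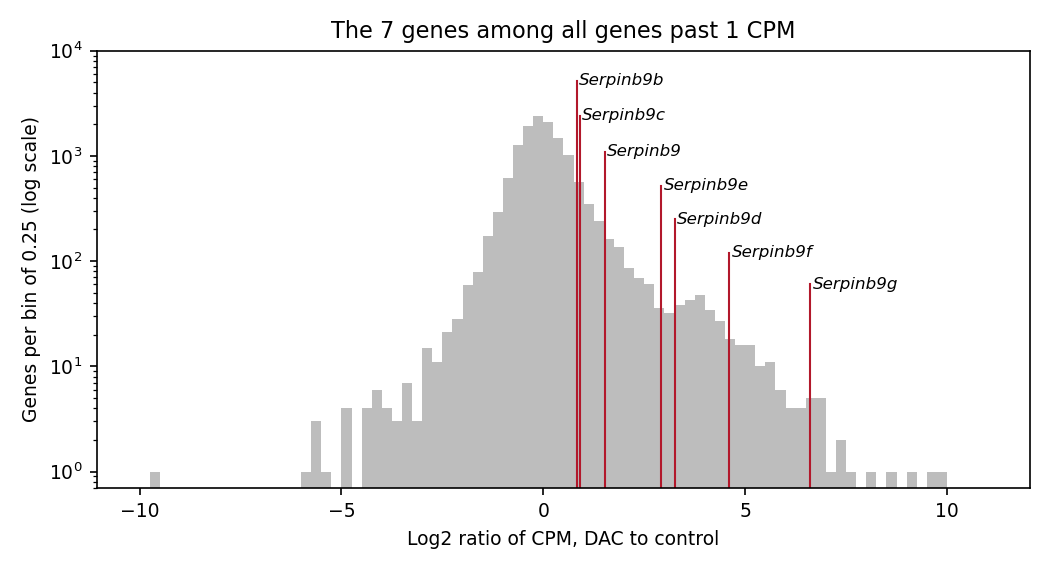
Genes per bin (y axis, log scale) against the log2 ratio between DAC and control (x axis), over the 13545 genes past 1 CPM, where a count of 0 is placed at 3 counts; red lines mark the 7 Serpinb9 genes. Serpinb9b and Serpinb9c, at 0.83 and 0.91, lie on the shoulder of the main peak, Serpinb9 lies at 1.52, and Serpinb9g lies in the far tail at 6.61.

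DAC lowers cytosine methylation at CpG sites as cells divide, so the stretches before the gene starts are shown with each CG in capitals. The 250 bases upstream of the RefSeq start are given for the best separated genes and for 3 similar copies (RefSeq, GRCm38.p6). Methylation of these bases was not analysed here.
Serpinb9 (chr13:33004291-33004540, plus strand): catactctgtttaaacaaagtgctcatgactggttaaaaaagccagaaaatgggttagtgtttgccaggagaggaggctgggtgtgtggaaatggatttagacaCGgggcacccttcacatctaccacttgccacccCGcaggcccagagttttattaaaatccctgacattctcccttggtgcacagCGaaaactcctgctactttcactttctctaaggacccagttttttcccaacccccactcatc
Serpinb9b (chr13:33027164-33027413, plus strand): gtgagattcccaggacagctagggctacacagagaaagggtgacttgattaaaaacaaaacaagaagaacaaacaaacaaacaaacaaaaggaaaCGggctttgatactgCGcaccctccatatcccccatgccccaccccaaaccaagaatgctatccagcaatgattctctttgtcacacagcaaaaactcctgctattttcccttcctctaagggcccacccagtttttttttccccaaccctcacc
Serpinb9e (chr13:33249358-33249607, plus strand): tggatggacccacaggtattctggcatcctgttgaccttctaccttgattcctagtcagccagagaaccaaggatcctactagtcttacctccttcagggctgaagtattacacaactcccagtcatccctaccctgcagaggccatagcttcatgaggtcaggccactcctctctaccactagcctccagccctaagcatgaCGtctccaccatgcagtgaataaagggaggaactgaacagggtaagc
Serpinb9f (chr13:33323827-33324076, plus strand): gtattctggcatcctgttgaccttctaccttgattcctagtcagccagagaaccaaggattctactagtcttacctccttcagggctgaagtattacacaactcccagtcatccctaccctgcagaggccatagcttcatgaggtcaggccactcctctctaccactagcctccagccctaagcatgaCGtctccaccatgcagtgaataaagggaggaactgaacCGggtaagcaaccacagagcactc
Serpinb9g (chr13:33484540-33484789, plus strand): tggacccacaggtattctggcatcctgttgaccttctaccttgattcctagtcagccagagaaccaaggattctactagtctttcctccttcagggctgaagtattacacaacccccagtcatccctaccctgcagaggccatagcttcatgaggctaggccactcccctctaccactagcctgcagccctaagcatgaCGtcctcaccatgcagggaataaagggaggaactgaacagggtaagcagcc
The 5 stretches hold 3 CG pairs in Serpinb9, 2 in Serpinb9b, 1 in Serpinb9e, 2 in Serpinb9f and 1 in Serpinb9g, while the median over 32851 mouse promoters of this length was 6. Of those promoters 29.0% hold at most 2 and 37.8% at most 3. Over their aligned overlap Serpinb9e was 99.1% identical to Serpinb9f and 95.9% to Serpinb9g, and Serpinb9f and Serpinb9g were 95.4% identical. These nearly identical upstream stretches stood before genes with ratios of 7.60, 24.3 and 97.9. Upstream of Gm11397, with a ratio of 45.9, identity was 47.5% to Serpinb9g, 48.7% to Serpinb9f and 47.9% to Serpinb9e. The GENCODE transcript read for Gm11397 has 6 exons, against 7 for Serpinb9e, Serpinb9f and Serpinb9g. Whether its annotated start matches theirs was not tested, so these values may not compare matching promoters. Upstream of Serpinb9d, with a ratio of 9.54, identity was 89.6% to Serpinb9g. Serpinb9 and Serpinb9b were 60.2% identical to each other upstream. The letters TGACGT, whose CG is one of the capitals, searched on both strands, were found in Serpinb9c, Serpinb9d, Serpinb9e, Serpinb9f and Serpinb9g, but not in Serpinb9, Serpinb9b or Gm11397, and occur in 6.47% of all promoters. They were chosen after the sequences were seen, and Serpinb9c, which holds them, was not called. The stretches of Serpinb9d, Serpinb9e, Serpinb9f and Serpinb9g are close copies of each other, so these are not separate hits to set against that share. GAAANNGAA, the core letters of interferon-stimulated response elements, occurred on the reverse strand of Serpinb9 alone among the 7 genes, against 7.13% of all promoters. TTCNNNGAA, the letters of a STAT site, occurred in Serpinb9c alone, against 7.02%. Serpinb9c has a second RefSeq start, whose upstream stretch holds none of the 3 motifs and 6 CG pairs, and the Serpinb9 stretch lies inside the GENCODE gene. The start used in CT26 cells was not analysed here.

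Of 11 listed genes for granzymes and for perforin, the pore-forming protein that lets granzymes into a target cell, 3 were analysed here, and 2 of them were at or near the floor of 3 counts. Gzmm, the granzyme M gene, had 56 counts in DAC and 16 in control cells, a ratio of 2.98 (1.69 to 5.57), and was called higher. Gzmk had 6 and 0 counts and Prf1, which encodes perforin, 3 and 0. Of 10 cytotoxic lymphocyte markers 2 were analysed here: Ptprc, the pan-leukocyte antigen CD45, had 0 DAC and 3 control counts, and Lck, a T-cell kinase, had 325 and 81. The summed level of these markers was 8.65 CPM in DAC and 2.62 CPM in control cells, and nearly all of it was Lck.

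Of 21 listed genes for granzyme B substrates and the apoptotic pathway, all 21 passed the minimum, 1 was called higher and 0 lower, against 10.8% and 5.29% of all genes. Their median log2 ratio was 0.073, beside -0.018 over all genes past the minimum. Dffb, the caspase-activated DNase, was the 1 called, with 214 counts in DAC and 88 in control cells and a ratio of 2.07 (1.61 to 2.69). This call is lost with GC centring, an alternative added after seeing the data, with an interval beyond 2-fold and with a ratio of at least 4, each of which leaves 0 genes of the list called higher. Bid, which granzyme B cleaves to start the mitochondrial pathway, had 90.7 CPM in DAC and 55.7 CPM in control cells, a ratio of 1.63 (1.54 to 1.73), under 2-fold. Lmna, a nuclear lamin and the most abundant gene of the list, had 535 CPM in DAC and 717 CPM in control cells and a ratio of 0.746 (0.732 to 0.760). Bcl2 had the lowest ratio of the list, 0.549 (0.502 to 0.602), also short of the 2-fold rule.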

How the data were processed

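RNA-seq counts of 1 DAC-treated and 1 control CT26 library were used. The authors deposited whole-number counts per Ensembl gene that had not been normalized. Per the submitters' notes, mm10 was the build and STAR 2.5.3a, Cufflinks, StringTie 1.3.1c, DESeq, FastQC and Trim Galore were tools, while the study's methods name CASAVA for FPKM values, and also Bowtie and TopHat. Which route made the counts, how reads with several matches were placed and the read length are not given in the sources used here.

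Symbols and transcripts came from GENCODE M21 (GRCm38), which matched 24122 of 24223 gene IDs. TMM factors were 1.07 for DAC and 0.936 for control (edgeR 4.0.16). Ratios, counting intervals and sequence comparisons used Python 3.11.15, numpy 2.4.6, scipy 1.17.1, pandas 2.3.3 and Biopython 1.88, and the rule was tested on simulated data. A count of 0 was set to 3 in ratios. Alternatives were scaling by size factors (DESeq2 1.42.0), by upper quartiles or by totals alone, thinning, other minimums, folds, intervals, a prior count and, chosen after seeing the data, GC centring and other sums. Named genes are the 7 genes, up to 3 called each way with the interval farthest from 1 and the most abundant gene of each list, and the 3 protein-coding genes nearest to Serpinb9 and to the member with the most DAC counts in the plane of both log2 CPM values. Gm11397, Gm11385, Gm36099, Gzmk, Prf1, Ptprc, Cdh1, Vil1, Cdx2, Vim, Serpinb1b, Bid and Bcl2 were named after their values were seen. The genes and lists were chosen with earlier results of these data known. Bisulfite sequencing and xenograft tumors were not analysed here.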

Additional observations from a re-analysis of the deposited data

How the results depend on the processing

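Each of the 7 Serpinb9 genes had a log2 ratio above 0 under the 6 alternatives that change the ratio itself (42 values), the other alternatives acting only on the call, and the family count moved between 4 and 7 genes called higher, with 0 lower. The scaling alternatives moved every gene alike, by 0.19 at most. The lowest main log2 ratio was 0.83, for Serpinb9b, so no sign could change under them. By library totals, Serpinb9b and Serpinb9c passed 2-fold (log2 ratios 1.02 and 1.10), and likewise with GC centring (1.02 and 1.18), an alternative picked once the data had been seen. The median over all genes was 0.17 by library totals and -0.018 by TMM, and each ratio moved by the same 0.19. With a fold of 4, Serpinb9 (1.52) was no longer called, and with a minimum of 5 CPM neither was Serpinb9d (3.25), by construction. The sum over Serpinb9, Serpinb9b, Serpinb9c and Serpinb9d, also chosen after seeing the data, had a log2 ratio of 0.999, just under 2-fold, against 1.62 for all 7 genes. A prior count of 2 lowered Serpinb9d most, to 2.82, since it has 5 control counts. With counts divided by 3 in the intervals, 5 genes stayed called. Over all genes, 1468 were called higher and 716 lower, against 2672 and 1239 without a minimum, 684 and 450 at 5 CPM, 579 and 112 at a fold of 4, 977 and 403 with intervals beyond 2-fold, and 1889 and 458 by library totals. No paired analysis was possible because each group has 1 library. Leaving out a replicate was not possible for the same reason. Depth limits the control values most, where Serpinb9d, Serpinb9f and Serpinb9g rest on 5, 20 and 13 counts. CT26 is of BALB/c origin and the reference is C57BL/6J; the effect of this on the placing of reads was not tested.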

Other observations

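Other serpin genes of the same chromosome 13 cluster were not uniformly higher. Of 8 listed neighbors, 6 were analysed here and 4 passed the minimum, with 3 called higher and 0 lower, against 10.8% and 5.29% of all genes. The 3 called genes were under 1 CPM in the control library, so they could be called in the higher direction only. Serpinb6b, the nearest analysed gene upstream of Serpinb9, at chr13:32965209-32979067, had 283 counts in DAC and 23 in control cells, a ratio of 10.5 (6.85 to 16.8). Serpinb6c had 38 DAC and 9 control counts, with a ratio of 3.60 (1.71 to 8.46). Serpinb1a had 60 and 25, with a ratio of 2.05 (1.26 to 3.40). Serpinb6a, the most abundant neighbor, had 12903 and 13610 counts, a ratio of 0.808 (0.789 to 0.828). Serpinb1b, which lies between Serpinb9b and Serpinb9c, had 25 and 17 counts, a ratio of 1.25 (0.650 to 2.47) below the minimum of 1 CPM. With intervals from counts divided by 3, 1 of the 3 calls was kept.

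The protein-coding genes with levels nearest to those of Serpinb9 over the 2 libraries were Tanc2, Ppp2r3d and Fam102a, at distances of 0.029, 0.048 and 0.075 log2 units. Tanc2 had 997 counts in DAC and 303 in control cells. Nearest to Serpinb9b, the member with the most DAC counts, were Gpr137b, Polr2f and Fiz1, at 0.035, 0.035 and 0.039 log2 units. With 2 libraries such nearness says only that 2 values were alike.

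Of the 7 colon epithelial markers analysed here 4 passed the minimum, and Krt8, Krt20 and Lgals4 were called higher, against 10.8% of all genes. The other, Krt18, had 95.2 CPM in DAC and 56.1 CPM in control cells, a ratio of 1.70, and was not called. Krt20 had 1548 counts in DAC and 593 in control cells, a ratio of 2.22 (2.02 to 2.45), and Lgals4 had 182 and 76 counts, a ratio of 2.04 (1.55 to 2.70).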
